A study of Mus musculus with 3 samples.

Results

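Neutrophil-like barcodes were described in brain cells of APOE-/- mice, which lack apolipoprotein E, that had been sorted for intermediate CD45 and positive CD11b and profiled by single-cell RNA sequencing. A barcode was a member when it had at least 500 detected genes and at most 10% of its unique molecular identifiers (UMIs) in mitochondrial genes, at least 1% of its UMIs in S100a8 and S100a9 together, at least 2 of Retnlg, Mmp8, Mmp9, Ltf, Lcn2 and Ngp detected, and under 1% of its UMIs in Ttr. In all, 414 of 11267 barcodes past the gene and mitochondrial limits were members, out of 12155 deposited barcodes. They were 140 barcodes of the sham library, 187 of the control peptide library and 87 of the APOE130-149 library. The members were thus chosen by the levels of Ttr and of the 8 marker genes of this rule, and those levels are given as descriptions. A neutrophil count is also set by the gate, which was made for cells with intermediate CD45, so these shares are shares of the sorted cells.

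The study asked about microglia in these mice. All mice were APOE-/-, and brains were taken at day 4. The sham group had sham induction and PBS. The control peptide group had induction of NMOSD, which usually stands for neuromyelitis optica spectrum disorder, in which antibodies attack astrocytes, and a control peptide. The APOE130-149 group had NMOSD induction and the peptide APOE130-149. A pool of 4 mice gave the 1 library of each group. No difference between groups therefore has a replicate check, no test was made, and all intervals are 95% intervals that cover counting error only.

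Neutrophils are short-lived granulocytes made in the bone marrow, and they load their granules in order as they mature. Promyelocytes fill azurophil granules (myeloperoxidase, neutrophil elastase, proteinase 3), myelocytes fill specific granules (lactoferrin, cathelicidin, lipocalin 2), and later cells fill gelatinase granules (Mmp8, Mmp9) and then gain the receptors of circulating neutrophils such as Cxcr2. Neutrophils are rare in the healthy brain itself, and they are known from early lesions of neuromyelitis optica. The labels do not say whether vessels were flushed, so cells from blood and from brain tissue cannot be told apart.

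The results turn on the balance between specific granule transcripts (Ltf, Camp, Ngp and Lcn2) and gelatinase granule transcripts (Retnlg, Mmp8 and Mmp9). The stretches directly before the annotated start of 2 genes of each kind are shown to set the groups side by side, because Cebpe, which encodes the C/EBP factor needed to make specific granules, is among the genes that mark the members. They are RefSeq sequences of GRCm38.p6, read 5′ to 3′ on the gene's strand, with the letters TTGCNNAA, a C/EBP core, in capitals wherever either strand held them. Ltf, which encodes lactoferrin, is shown at chr9:111019042-111019270 on the plus strand, and Ngp, which encodes a cathelin-related granule protein, at chr9:110419558-110419746 on the plus strand.
Ltf: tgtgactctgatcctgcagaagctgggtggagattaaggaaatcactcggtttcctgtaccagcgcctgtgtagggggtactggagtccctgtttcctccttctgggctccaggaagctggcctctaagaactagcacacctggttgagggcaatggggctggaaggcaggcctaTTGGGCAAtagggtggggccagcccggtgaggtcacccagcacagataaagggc
Ngp: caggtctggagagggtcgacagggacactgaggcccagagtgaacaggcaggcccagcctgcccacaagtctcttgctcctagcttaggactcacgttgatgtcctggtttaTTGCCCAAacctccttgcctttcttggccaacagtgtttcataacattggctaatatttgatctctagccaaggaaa
Retnlg, which encodes a resistin-like secreted protein, is shown at chr16:48872358-48872607 on the plus strand, and Mmp8, which encodes neutrophil collagenase, at chr9:7558179-7558428 on the plus strand.
Retnlg: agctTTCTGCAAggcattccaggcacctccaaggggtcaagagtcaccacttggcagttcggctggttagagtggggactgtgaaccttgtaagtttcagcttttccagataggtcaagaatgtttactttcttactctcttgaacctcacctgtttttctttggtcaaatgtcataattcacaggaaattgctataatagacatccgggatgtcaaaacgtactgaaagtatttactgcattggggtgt
Mmp8: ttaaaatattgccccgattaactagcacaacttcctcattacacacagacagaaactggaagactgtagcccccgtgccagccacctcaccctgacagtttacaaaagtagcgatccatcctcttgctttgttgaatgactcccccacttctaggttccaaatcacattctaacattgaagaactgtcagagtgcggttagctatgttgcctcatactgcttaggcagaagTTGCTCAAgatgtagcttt
Each of the 4 stretches held 1 match. Of 32851 promoter entries, 9.02% held a match in a stretch of 229 bases as for Ltf, 7.76% in 189 bases as for Ngp, and 9.56% in 250 bases as for Retnlg and Mmp8. A match is a run of letters, not a shown binding site, and both granule groups had it.

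The library totals were 32712199 UMIs for sham, 61469677 UMIs for the control peptide and 32060750 UMIs for APOE130-149, and barcodes past the limits had medians of 7124, 7848 and 9991 UMIs. The sham and control peptide libraries shared 9 barcodes, of which 1 was a member in both, the control peptide and APOE130-149 libraries shared 3, of which 0 were members, and the sham and APOE130-149 libraries shared 0. Members made up 3.31% of barcodes in sham (95% interval 2.79 to 3.89), 3.73% with the control peptide (3.22 to 4.29) and 4.3% with APOE130-149 (3.46 to 5.27). These 3 intervals overlapped. The members nearest to the S100 limit had 1.01%, 1.04% and 1.17% of UMIs in S100a8 and S100a9, in the order sham, control peptide and APOE130-149, and the nearest barcodes outside it had 0.997%, 0.962% and 0.952%. In the control peptide library 12 barcodes met every criterion but the Ttr limit, against 0 in each of the others.

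The members were of 2 kinds that differed in microglial RNA. The share of UMIs in 8 microglia markers, P2ry12, Tmem119 and Cx3cr1 among them, was under 0.5% in 37 sham, 68 control peptide and 40 APOE130-149 members, called here members with little microglial RNA. The other 103, 119 and 47 members held more. Of barcodes past the limits, those with little were 0.874% (0.616 to 1.20), 1.36% (1.06 to 1.72) and 1.98% (1.41 to 2.68). The intervals of sham and APOE130-149 did not overlap here, and that of the control peptide overlapped both. Those with more were 2.43% (1.99 to 2.94), 2.37% (1.97 to 2.84) and 2.32% (1.71 to 3.07), with overlapping intervals. Few members lay near the limit: 2, 2 and 3 had between 0.4% and 0.8%. Members with little microglial RNA had medians of 32.4%, 33.4% and 32.7% of UMIs in S100a8 and S100a9, and the members with microglial RNA had 4.88%, 6.66% and 7.60%. Their median depths were 10535, 10128.5 and 12163.5 UMIs with little, and 1334, 14552 and 18131 UMIs with more microglial RNA. Among members with microglial RNA, 6 of 103 sham barcodes, 57 of 119 in the control peptide library and 22 of 47 in the APOE130-149 library had more than 2 times the median UMIs of their library, with up to 289814 UMIs in a barcode. The sham barcodes of that kind were thus mostly shallow, and many of those of the NMOSD libraries were deep.

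**Figure D1:**
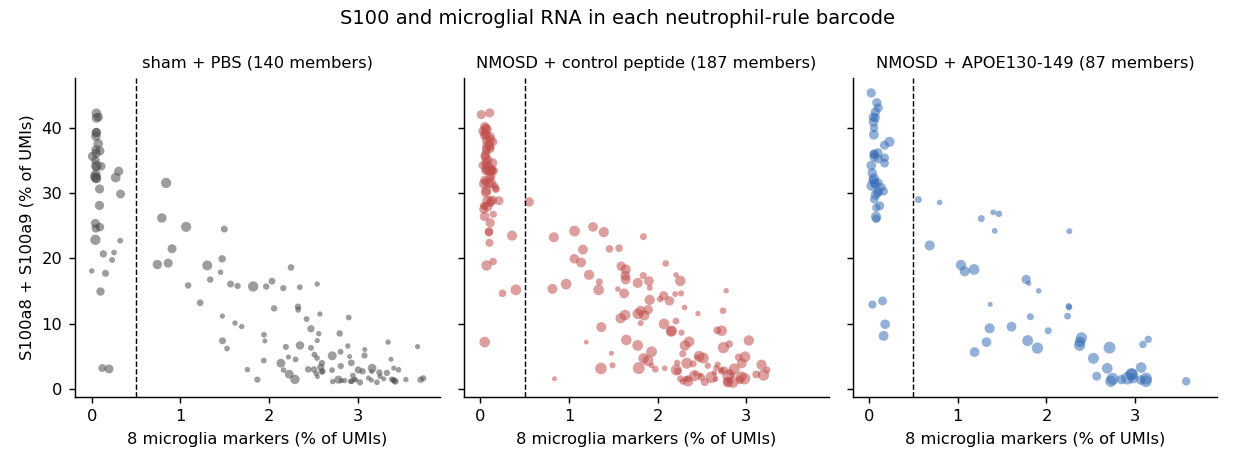
Each point is a member, with its share of UMIs in 8 microglia markers on the x axis and in S100a8 plus S100a9 on the y axis, both in percent, and a larger point for more UMIs; the dashed line marks 0.5%. In every library a column of points near 0% microglial RNA stands apart from a band in which the S100 share is lower where the microglia marker share is higher.

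P2ry12, a purinergic receptor that marks microglia, was at 814 counts per 1000000 UMIs (CPM) in the summed members of sham (751 to 881), 1376 CPM with the control peptide (1339 to 1414) and 1731 CPM with APOE130-149 (1681 to 1782). In these sums the order of the libraries was sham, control peptide, APOE130-149 from low to high, with no overlap of intervals. The order was the opposite with each member weighted equally, at 1702, 1185 and 960 CPM, and without barcodes above 2 times the median UMIs, at 1073, 592 and 535 CPM. After thinning to 1000 UMIs, 58.7%, 53.6% and 47.1% of members had a P2ry12 UMI. The order of the sums thus rests on deep barcodes of the NMOSD libraries. P2ry12 was at 69.9 CPM (46.8 to 100), 83.8 CPM (65.4 to 106) and 65.6 CPM (46.0 to 90.8) in members with little microglial RNA, with overlapping intervals. In microglia-like cells, the 4027, 4706 and 1913 other barcodes with at least 4 of the 8 markers detected, S100a8 plus S100a9 under 1% and Ttr under 1%, it was at 2527, 2317 and 2500 CPM. The 8 markers together reached 32.6%, 60.1% and 71.0% of their microglia-like level in all members, but 3.08%, 3.87% and 3.06% in members with little microglial RNA. The share of microglia markers in the summed UMIs was thus higher in both NMOSD libraries than in sham, while the median share per member had the opposite order, with 2.21%, 1.63% and 1.04%. All-member levels of neutrophil genes are given below beside the levels in members with little microglial RNA; the part of microglial RNA in any single difference was not tested.

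Neutrophil markers outside the rule were present in members with little microglial RNA of every library. Camp, which encodes the antimicrobial peptide cathelicidin, was at 25501, 36675 and 25410 CPM in the sham, control peptide and APOE130-149 members, against 16.9, 24.6 and 17.0 CPM in microglia-like cells. Ly6g, the surface antigen used to sort mouse neutrophils, was at 670, 524 and 815 CPM, against 0.508, 0.407 and 0.414 CPM. Cd177, a neutrophil adhesion antigen, was at 1109, 1004 and 1053 CPM. Csf3r, the receptor for granulocyte colony-stimulating factor, was at 357, 215 and 355 CPM, near its 309, 265 and 272 CPM in microglia-like cells, so it did not separate the kinds of cells here. After thinning every barcode to 1000 UMIs, a Camp UMI was seen in 59.5%, 80.9% and 70.0% of these members (67.6%, 91.2% and 75% unthinned), against 2.43%, 2.98% and 1.93% of microglia-like cells. The median depth of microglia-like cells was 7279, 7895.5 and 9986 UMIs.

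The 20 genes with the highest ratio of members to microglia-like cells, by the mean over the 3 libraries, were led by Ngp, Ly6g, Camp, Ltf, Wfdc21, S100a8, Lcn2 and S100a9. They also held Retnlg, Itgb2l, Mmp8, Cebpe, Cd177, Pglyrp1, Syne1, Rflnb, Mmp9, Lrg1, Trem3 and Serpinb1a. Pglyrp1 encodes a peptidoglycan recognition protein of granules, and Serpinb1a an inhibitor of neutrophil serine proteases. Pglyrp1 was at 2643, 2526 and 2737 CPM and Serpinb1a at 485, 851 and 465 CPM in members with little microglial RNA. Pglyrp1 was thus similar in the 3 libraries, and Serpinb1a was highest with the control peptide.

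The granule stage differed in its balance between libraries. Specific granule UMIs of members with little microglial RNA outnumbered gelatinase granule UMIs 4.63 to 1 in sham (4.51 to 4.76), 9.18 to 1 with the control peptide (8.97 to 9.39) and 4.00 to 1 with APOE130-149 (3.91 to 4.09). All of these genes but Camp are also genes of the rule, so the ratio is a description. Over all members the ratios were 5.86 (5.72 to 6.01), 8.23 (8.10 to 8.37) and 4.02 (3.95 to 4.09). The control peptide library was highest in 13 of 13 settings for all members and in 8 of 8 for members with little microglial RNA, while sham exceeded APOE130-149 in 12 and 6 of these. The settings, the main one among them, mostly re-use the same barcodes of the same libraries, so these counts are no replicates. None of them took the members with microglial RNA alone. Without barcodes above 2 times the median UMIs the ratios in members with little microglial RNA were 1.33, 4.42 and 2.19, with the control peptide again highest and sham below APOE130-149. With each of these members weighted equally they were 2.35, 4.59 and 2.27.

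Single members lay mostly at the ends of this scale. Among members with little microglial RNA and at least 10 UMIs of the 7 granule genes, specific granule UMIs were at least 50% in 18 of 35 sham members (51.4%, exact binomial interval 34.0 to 68.6), 52 of 68 control peptide members (76.5%, 64.6 to 85.9) and 24 of 40 APOE130-149 members (60%, 43.3 to 75.1). The intervals of sham and APOE130-149 overlapped widely, and that of the control peptide overlapped in part with both. Only 0, 3 and 3 members lay between 40% and 60%. At 90% or more lay 12, 32 and 15 members, and under 20% lay 9, 13 and 12. Specific-rich members were the deeper ones, with medians of 14976.5, 11478.5 and 15198 UMIs, against 7008, 5593.5 and 8753 UMIs in gelatinase-rich members. Summed UMIs therefore weight the specific-rich members more. Over all members with at least 10 UMIs of the 7 granule genes, the specific-rich share was not highest with the control peptide. It was 76.4% in sham (66.2 to 84.8), 74.9% with the control peptide (67.6 to 81.2) and 64.0% with APOE130-149 (52.9 to 74.0), with overlapping intervals.

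**Figure D2:**
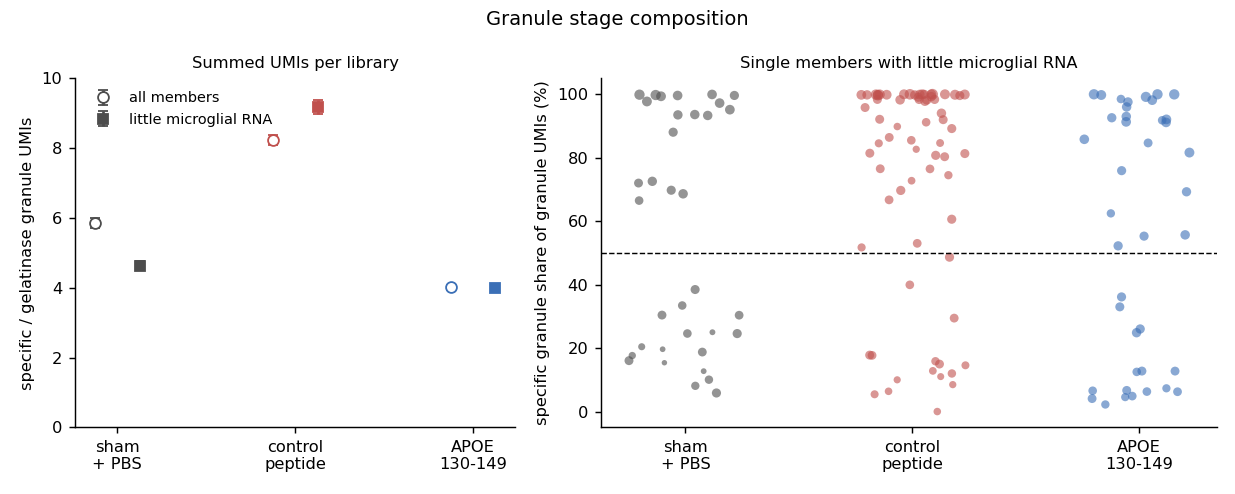
Left, the ratio of summed specific to gelatinase granule UMIs per library, for all members (open circles) and members with little microglial RNA (filled squares), with exact 95% intervals; right, the specific share of granule UMIs in single members with little microglial RNA, in percent, with a larger point for more UMIs and a dashed line at 50%. The control peptide library is highest at left, and at right its points lie mostly above the line.

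Transcripts of azurophil granules came from few members. In members with little microglial RNA, the summed azurophil genes (Mpo, Elane, Prtn3, Ctsg and Ms4a3, with Bpi at 0 UMIs) had 536 UMIs in the sham library, 1810 UMIs with the control peptide and 9 UMIs with APOE130-149. In sham 526 of these UMIs came from 1 member, and with the control peptide 1223 came from 1 member. At least 10 azurophil UMIs were found in 1 of 37 sham members, 7 of 68 control peptide members (10.3%, 4.24 to 20.1) and 0 of 40 APOE130-149 members, for which the limit from 3 counts is 7.50% and the exact upper bound 8.81%. Without the member with most azurophil UMIs, the summed level was 26.1 CPM in sham, 728 CPM with the control peptide and 9.68 CPM with APOE130-149. Elane, which encodes neutrophil elastase, had 257 UMIs in 1 sham member and 669 UMIs in 6 control peptide members, and 0 UMIs in APOE130-149 members. Over all members its level with APOE130-149 was at least 155-fold lower than the 179 CPM with the control peptide, taking 3 counts over the library's members as the limit. Of the 669 UMIs 70.7% came from 1 member, without which the level was 53.1 CPM with the control peptide and the bound 46.0-fold. Prtn3, which encodes proteinase 3, was at 432, 906 and 7.29 CPM in members with little microglial RNA. Of its UMIs, 97.8% in sham and 67.1% with the control peptide came from 1 member. The intervals of Mpo, which encodes myeloperoxidase, overlapped between sham at 164 CPM (127 to 208) and the control peptide at 177 CPM (150 to 208), again mostly from 1 member each.

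Specific granule genes were close between libraries once members with little microglial RNA were taken alone. Ltf was at 7481, 7590 and 8194 CPM in the same library order, and Lcn2, which encodes the iron-siderophore binding protein lipocalin 2, at 11545, 12128 and 12602 CPM. Ngp was at 26572, 32109 and 26597 CPM, highest with the control peptide, as was Camp. Chil3, which encodes a chitinase-like protein of early neutrophils, was at 4276, 4998 and 3785 CPM. Over all members the same genes were highest in sham: Ltf at 5998, 3492 and 2623 CPM, Ngp at 21480, 12610 and 9280 CPM, and Lcn2 at 9266, 5152 and 4114 CPM. Between sham and the control peptide this direction turned with each member weighted equally, where the log2 ratio of the control peptide to sham was 0.68 for Ltf, 0.70 for Ngp and 0.42 for Lcn2, and without barcodes above 2 times the median UMIs, where it was 0.95, 0.93 and 0.56. Ltf lies at chr9:111019271-111042767, Camp at chr9:109847379-109849617, Ngp at chr9:110419747-110423012 and Lcn2 at chr2:32384633-32388252 (GRCm38, whole genes).

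Retnlg, Mmp8 and Mmp9, gelatinase granule genes of the rule, were lowest with the control peptide. In members with little microglial RNA, 3 of 6 listed gelatinase granule genes (Mmp8, Retnlg and Slc11a1) were at least 1.5-fold lower than in sham. Over all genes that share was 14.6%. With APOE130-149, 3 of 6 (Retnlg, Adam8 and Slc11a1) were at least 1.5-fold higher than with the control peptide, against 13.3% of all genes. In members with little microglial RNA Retnlg was at 11183 CPM in sham (10863 to 11510), 6856 CPM with the control peptide (6681 to 7035) and 14364 CPM with APOE130-149 (14049 to 14685). Mmp8 was at 2429, 1542 and 2074 CPM, and Mmp9, which encodes gelatinase B, at 1736, 1246 and 1755 CPM. For Mmp9 the intervals of sham (1612 to 1868) and APOE130-149 (1646 to 1869) overlapped, and that of the control peptide (1172 to 1323) lay below both. Over all members Retnlg was at 6858, 2941 and 4598 CPM and Mmp8 at 1621, 707 and 770 CPM, but with each member weighted equally the log2 ratio of the control peptide to sham was 0.18 for Retnlg and 0.28 for Mmp8. Retnlg lies at chr16:48872621-48874496, Mmp8 at chr9:7558456-7568485 and Mmp9 at chr2:164940780-164955850.

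S100a8 and S100a9, the subunits of calprotectin, were similar between libraries in members with little microglial RNA. S100a8 was at 152816, 137708 and 147722 CPM and S100a9 at 166659, 163399 and 174246 CPM. Over all members they were at 113125, 58074 and 47756 CPM for S100a8 and 122826, 67805 and 56549 CPM for S100a9, a direction that turned with each member weighted equally, where the log2 ratio of the control peptide to sham was 0.31 for S100a8 and 0.44 for S100a9. Microglia-like cells had 102, 119 and 157 CPM of S100a8. S100a8 lies at chr3:90668978-90670035 and S100a9 at chr3:90692632-90695721.

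**Figure D3:**
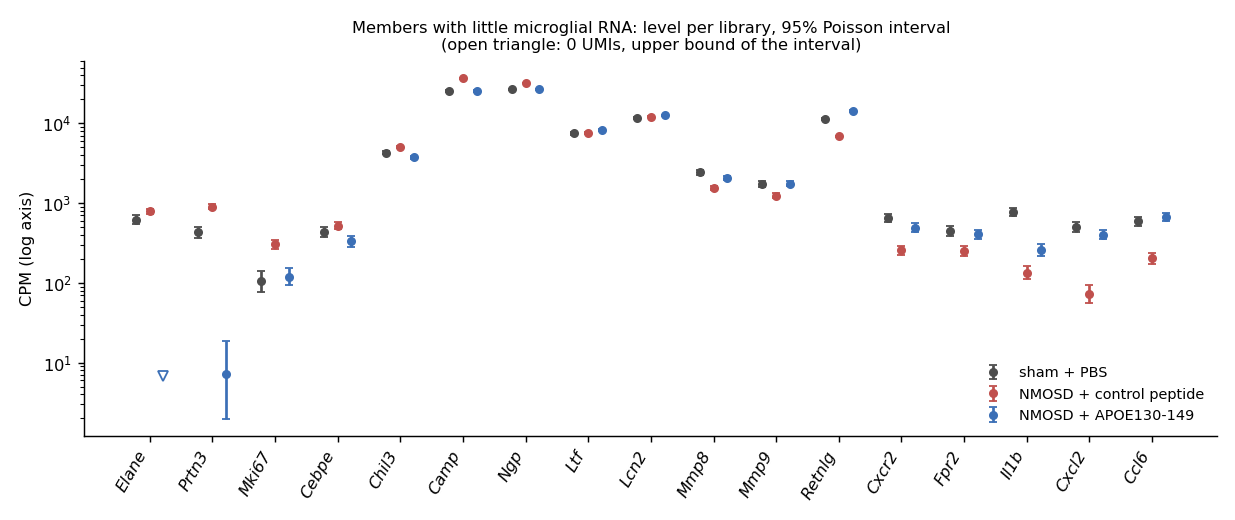
Levels of 17 genes in members with little microglial RNA, in CPM on a log axis, for the 3 libraries, with 95% Poisson intervals and an open triangle at the upper bound where 0 UMIs were found. Genes run from azurophil and proliferation genes at left through specific and gelatinase granule genes to receptors and cytokines at right; the control peptide library is highest for Mki67 and lowest for Retnlg, Cxcr2, Il1b and Ccl6.

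Proliferation genes were higher with the control peptide. In members with little microglial RNA, 7 of 10 (Mki67, Top2a, Birc5, Ube2c, Pclaf, Stmn1 and Tubb5) were at least 1.5-fold higher with the control peptide than in sham, where 26.0% of all genes tested were, and 9 of 10 were at least 1.5-fold lower with APOE130-149 than with the control peptide, where 22.7% of all genes were. The median log2 ratio was 1.48 in the first comparison, against 0.08 over all genes, and -1.29 in the second, against -0.08. Mki67, a nuclear protein of dividing cells, was at 106 CPM in sham, 306 CPM with the control peptide and 120 CPM with APOE130-149, from 6, 16 and 4 members, and 54.5%, 30.1% and 42.4% of its UMIs came from 1 member. After thinning, an Mki67 UMI was seen in 0 of 37, 6 of 68 and 1 of 40 of these members, and in 1.71%, 1.77% and 1.82% of microglia-like cells. Without the 11, 15 and 6 members above 2 times the median UMIs of their library, the counts were 1 higher and 1 lower. The number of genes measured and the share over all genes are not given for that setting.

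Receptors of mature neutrophils were lower with the control peptide. Of 16 such genes, 12 were, in members with little microglial RNA, at least 1.5-fold lower with the control peptide than in sham, against 14.6% of all genes, and 0 were higher, while 9 of 16 were at least 1.5-fold higher with APOE130-149 than with the control peptide, against 13.3% of all genes, and 0 were lower. The median log2 ratios were -0.71 and 0.67. Both comparisons share the control peptide library. Cxcr2, the chemokine receptor that draws mature neutrophils out of the marrow, was at 658 CPM in sham (583 to 741), 257 CPM with the control peptide (224 to 294) and 494 CPM with APOE130-149 (437 to 556), with no overlap of intervals and no more than 9.16% of UMIs from 1 member. Fpr2, a formyl peptide receptor, was at 449, 251 and 408 CPM. Clec4d, a C-type lectin receptor, was at 195, 59.0 and 146 CPM. Trem1, an amplifier of inflammatory signalling, had another order, with 62.7, 48.4 and 151 CPM. Without barcodes above 2 times the median UMIs, the counts were 11 lower with the control peptide and 4 higher with APOE130-149. For that setting no share over all genes is given, so these 2 counts cannot be set against one.

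Cytokine and chemokine genes had the same order, on few members. Of 11 measured genes, 9 were, in members with little microglial RNA, at least 1.5-fold lower with the control peptide than in sham (median log2 ratio -2.52), against 14.6% of all genes, and 7 of 8 were at least 1.5-fold higher with APOE130-149 than with the control peptide (median 0.99), against 13.3% of all genes. Il1b, which encodes interleukin 1 beta, was at 772, 134 and 259 CPM from 13, 11 and 11 members, and 40% of the sham UMIs came from 1 member. Cxcl2, a ligand of Cxcr2, was at 506, 73.1 and 403 CPM from 10, 14 and 18 members. Ccl6, a CC chemokine, was at 593, 204 and 671 CPM from 19, 27 and 22 members. Osm, which encodes oncostatin M, was at 241, 83.8 and 179 CPM. Ccl3 and Ccl4, CC chemokines that microglia also make, were at 128 and 147 CPM in sham from 2 and 3 members, at 9.44 and 10.6 CPM with the control peptide and at 10.9 and 9.11 CPM with APOE130-149. Without barcodes above 2 times the median UMIs, or with each member weighted equally, the second count was 3. The number of genes measured and the share over all genes are not given for these settings.

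Subunits of the NADPH oxidase, which makes superoxide, were similar: 0 of 6 were 1.5-fold apart in either direction in either comparison in members with little microglial RNA, where 26.0% of all genes were higher and 14.6% lower in the first, and 13.3% higher and 22.7% lower in the second. The same shares apply to the lists that follow. Cybb, its catalytic subunit, was at 1761, 1919 and 1961 CPM in members with little microglial RNA, and Cyba at 1478, 1712 and 1615 CPM. Of 9 measured interferon response genes, 7 were at least 1.5-fold lower with the control peptide than in sham and 0 higher, while 3 were higher and 1 lower with APOE130-149 than with the control peptide. Over all members 7 of 14 were higher and 3 lower in the first comparison, where 38.1% and 8.38% of all genes were, so the balance of this list was not that of members with little microglial RNA. Ifitm1, an antiviral membrane protein, was at 232, 24.8 and 115 CPM, of which 52.1% in sham and 88.9% with APOE130-149 came from 1 member. Ifitm2 was at 642, 418 and 570 CPM, from 34, 58 and 39 members. Of 11 measured glycolysis genes, 0 were higher and 1, the glucose transporter gene Slc2a3, was lower with the control peptide than in sham. Among transcription factors, Cebpe was at 434, 521 and 332 CPM, and Cebpb, which serves later and emergency granulopoiesis, at 555, 250 and 529 CPM. Mcl1, a survival factor on which neutrophils depend, was at 620, 337 and 503 CPM.

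Many genes differed between the ends of the granule scale within each library. The members with little microglial RNA were divided at 50% specific granule UMIs, which is a point on a scale and not a border between types, into 18, 52 and 24 specific-rich and 17, 16 and 16 gelatinase-rich members in the same library order. The specific-rich members held 294455, 749947 and 405875 UMIs in all, and the gelatinase-rich members 106810, 97750 and 142844 UMIs. Low levels in these ranges therefore rest on few UMIs. Granule genes made this division, so their levels are no result of it, and other genes of the same cells are given as a description. Il1b was at 3.40, 6.67 and 2.46 CPM in specific-rich and at 1788, 1115 and 987 CPM in gelatinase-rich members. Cstdc4, a stefin gene, was at 0, 32.0 and 0 CPM against 1498, 1586 and 1561 CPM, and Ccl6 at 17.0, 44.0 and 39.4 CPM against 2256, 1432 and 2464 CPM. Stefin genes lie in a family of near-identical copies, so the split of reads between them is uncertain. Stfa2l1, Ifitm1, Jaml, Wfdc17, Ptgs2, Clec4d and Dusp1 had the same direction in all 3 libraries.

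Proliferation genes and Fcnb were seen at the specific-rich end. Fcnb, which encodes ficolin B, was at 635, 725 and 227 CPM in specific-rich members and at 0 CPM in gelatinase-rich members of all libraries. Mki67 was at 136, 345 and 163 CPM against 0 CPM in all libraries, and Chil3 at 5909, 5628 and 5100 CPM against 93.6, 164 and 49.0 CPM. Lta4h, the enzyme that makes leukotriene B4, was at 445, 389 and 384 CPM against 28.1, 10.2 and 21 CPM, the latter from few UMIs. S100a9 differed little, with 172709, 160366 and 167357 CPM against 169750, 186670 and 193820 CPM. Cxcr2 was lowest with the control peptide in both ranges, at 1592, 982 and 1239 CPM in gelatinase-rich and 272, 163 and 232 CPM in specific-rich members. No intervals are given for the ranges, so this order was not set against counting error. Retnlg in gelatinase-rich members was at 34182, 37381 and 39757 CPM, and was thus not lowest with the control peptide there, though Retnlg itself helped to make the division. Csf3r in gelatinase-rich members was at 871, 1054 and 1001 CPM.

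**Figure D4:**
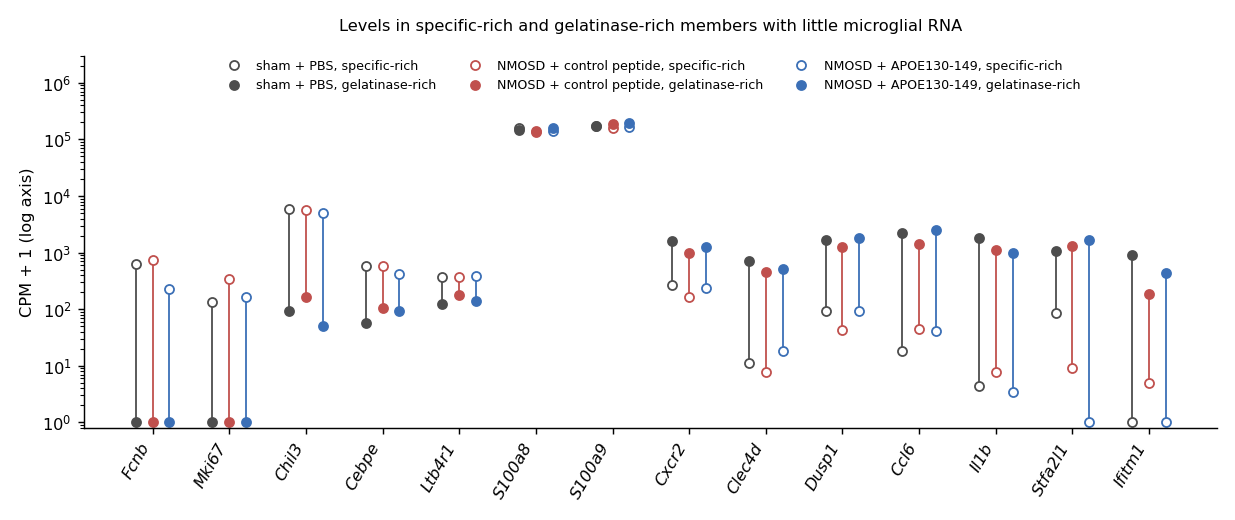
Levels of 14 genes as CPM plus 1 on a log axis in specific-rich (open) and gelatinase-rich (filled) members with little microglial RNA, for the 3 libraries. Fcnb, Mki67 and Chil3 lie higher in specific-rich members, S100a8 and S100a9 lie close together, and Cxcr2 to Ifitm1 lie higher in gelatinase-rich members.

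Over all members, NMOSD with the control peptide against sham gave 38.1% of 8196 genes at least 1.5-fold higher and 8.38% at least 1.5-fold lower, with a median log2 ratio of 0.39. With median-of-ratios scaling, which removes that shift, 1566 genes were higher and 1599 lower, against 3124 and 687. Over all members 11 of 16 receptor genes were at least 1.5-fold lower with the control peptide and 7 of 10 proliferation genes higher. With each member weighted equally, 1 receptor gene was lower and 1 higher, and 6 proliferation genes were higher. In that setting 24.4% of all genes were higher and 17.4% lower. Without barcodes above 2 times the median UMIs, 5 receptor genes were lower, and of 7 measured proliferation genes 2 were higher and 2 lower. There 11.5% of all genes were higher and 27.2% lower, so the lower counts of both lists were near the share over all genes. Of genes at least 2 times as high in members as in microglia-like cells, 10 were higher by the rule for named genes. Among them were Ccl8, a CC chemokine gene (1.32 CPM in sham, 77.2 CPM with the control peptide), Hist1h1b, a histone gene of dividing cells (39.5 and 207 CPM), and Top2a (51.4 and 125 CPM). Ccl8 had 1 and 3 UMIs in members with little microglial RNA, so nearly all of its UMIs lay in members with microglial RNA. Hist1h1b was 8.59-fold higher in members with little microglial RNA (5.95 to 12.9). The lowest of 387 lower genes were Ifitm1, Il1b, Olfm4, Ptgs2, Asprv1, Cstdc4, Clec4d, Cmah, Cxcl2 and Cxcr2. No share over all genes goes with the counts 10 and 387. In these sums the 8 microglia markers reached 32.6% of their microglia-like level in sham and 60.1% with the control peptide. The part of this in the 2 counts was not tested. Il1b was 5.77-fold lower over all members and stood at a ratio of 0.174 (0.139 to 0.216) in members with little microglial RNA. With each member weighted equally, the log2 ratio over all members was -1.05 for Il1b, against -2.53 in the sums, and -0.15 for Cxcr2, against -1.73. Olfm4, which encodes a specific granule glycoprotein of a subset of neutrophils, was 5.69-fold lower over all members but equal at 152 CPM in those with little microglial RNA, from 3 and 4 members.

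APOE130-149 against the control peptide over all members gave 5.70% of 8498 genes at least 1.5-fold higher and 4.18% at least 1.5-fold lower, with a median log2 ratio of 0.06. All 5 measured azurophil genes and 7 of 10 proliferation genes were at least 1.5-fold lower, and 4 of 16 receptor genes were higher. The highest of 27 genes were Cxcl9, Ahnak, Cxcl2, Asprv1, Stfa2l1, Clec4d, Il1f9, Iigp1, Il1b and Clec4e. Cxcl2 was at 74.2 CPM with the control peptide and 178 CPM with APOE130-149, a ratio of 2.40 (2.06 to 2.79), and Il1b at 75.5 and 125 CPM, a ratio of 1.66 (1.41 to 1.95). Cxcl9, an interferon-induced chemokine, was at 9.38 and 92.8 CPM, but 72.6% of the higher level came from 1 member and members with little microglial RNA held 0 UMIs. Iigp1 had 144 and 167 UMIs over all members, but 1 and 0 UMIs in members with little microglial RNA. The lowest of 117 genes were Elane, Prtn3, Hist1h1b, Ccl8, Fcnb, Hist2h2ac, Plac8, Olfm4, Mki67 and Pclaf. No share over all genes goes with the counts 27 and 117. Fcnb was at 190 and 62.4 CPM, a ratio of 0.329 (0.275 to 0.391), and Mki67 at 135 and 52.7 CPM, a ratio of 0.391 (0.321 to 0.473). Both comparisons use the same control peptide library.

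Markers of other cell types were low or tied to single barcodes in members with little microglial RNA. Monocyte markers summed to 1249, 1075 and 1154 CPM, mostly from Ly6c2, which neutrophils also express, at 1247, 1043 and 1024 CPM, while Vcan was at 0 UMIs in all libraries. Border-associated macrophage markers had 4, 121 and 27 UMIs, and 93.4% of those with the control peptide came from 1 member. T cell markers had 7, 5 and 12 UMIs in these members, but 192 UMIs over all control peptide members, of which 94.3% came from 1 barcode. B cell markers were at 65.1, 34.2 and 52.9 CPM, eosinophil markers at 4.82, 3.54 and 9.11 CPM, and basophil or mast cell markers at 0 UMIs. Erythroid markers had 0, 41 and 7 UMIs and choroid plexus markers 2, 51 and 24 UMIs, and 1 member held 58.5% of the erythroid UMIs with the control peptide, as 1 did for 85.7% with APOE130-149. Dendritic cell markers had 0, 0 and 2 UMIs, oligodendrocyte markers were at 60.3, 43.6 and 51.0 CPM, and endothelial markers at 2.41, 4.72 and 18.2 CPM. Their part in the differences above was not tested.

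In the APOE130-149 library 3 members with little microglial RNA, chosen after their values were seen, stood apart from the others of that kind. They had at least 10 UMIs of Ahnak, which encodes a large scaffold protein, and held 128 of the 129 Ahnak UMIs, all 63 UMIs of Ccr2, a chemokine receptor of monocytes, and all 69 UMIs of S100a4. They also held 22 of 23 UMIs of Mrc1, a macrophage lectin, but only 252 of 13943 Camp and 84 of 7882 Retnlg UMIs. Their S100a8 plus S100a9 share was 8.13% to 13.5%, at 9259 to 21444 UMIs. The higher Ahnak level with APOE130-149 over all members, 54.3 against 11.8 CPM, rests on them: without these 3 the level was 5.10 CPM, from 13 of 141 UMIs, below that with the control peptide.

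Apoe, the gene disrupted in all mice, was low in the members. It was at 23.7 CPM in sham, 99.1 CPM with the control peptide and 110 CPM with APOE130-149 over all members, and at 0, 26.0 and 21.9 CPM in members with little microglial RNA. With the control peptide, 72.7% of the 22 UMIs in these members came from 1 barcode. A UMI at the 3′ end does not check a deletion elsewhere in the gene.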

How the data were processed

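Brain cells were measured in 3 droplet libraries with 3′ chemistry, 1 per treatment group named in the labels. The deposited matrices hold UMI counts per gene and barcode, whole numbers with no normalization, per the file headers. The tools listed in the submitters' processing notes are Seurat 4.3.0 and Cell Ranger 5.0.1, with mm10 as build, while the file header names 7.0.1. Which version made the counts, and whether intronic reads or strand were counted, is not given in the sources used here. Depth per library, in UMIs, is given in the report. It sets the precision, given as exact 95% Poisson, binomial (Clopper-Pearson) and conditional ratio intervals. The ratio intervals were tried on simulated data drawn from the Poisson model that they assume. That trial does not cover UMIs clustered in single barcodes.

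Counts of members were summed per library and scaled to CPM with Python 3.11.15, numpy 2.4.6, scipy 1.17.1 and pandas 2.3.3, and drawn with matplotlib 3.10.9. Doublets were kept and no doublet caller was run. A gene was tested with at least 10 CPM and 10 UMIs in either library and called at 1.5-fold. With 1 library per group no p-value was computed. Named genes were the 8 of the rule, list members, and per comparison the 10 highest and 10 lowest ratios among genes whose higher library reached 50 CPM and 20 UMIs, with an interval without 1 and at least 2 times the microglia-like level, leaving out mitochondrial, ribosomal protein, haemoglobin and predicted genes; and the 20 genes highest in members at 100 CPM or more. Ranges needed at least 10 granule UMIs and list the 15 genes highest in each direction. Members and lists were chosen with earlier results of these data known; the granule ranges and the examples named from them and from the lists were chosen after values were seen. Coordinates are of GENCODE M21 (GRCm38, the assembly of mm10). Promoter stretches come from RefSeq and were ended before the first annotated start in either annotation; Camp and Lcn2 are not shown, and Mmp9 is named only. Alternatives changed the rule's limits, weighting, scaling and barcodes left out. Single values of some list members are not reported here.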

Additional observations from a re-analysis of the deposited data

How the results depend on the processing

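No paired analysis was possible because each group is 1 library. The control peptide library had the highest specific to gelatinase ratio in every setting tried, over all members and over those with little microglial RNA. The order of sham and APOE130-149 was not kept in all. In members with microglial RNA alone, for which no setting was tried, sham had the highest ratio. Values are in the order sham, control peptide, APOE130-149. The share of members was 1.74% in sham with at least 1000 genes, 2.01% and 2.65% in sham and control peptide at an S100 limit of 5%, 3.90% in sham at 0.5%, 2.53% in sham with at least 3 other markers, 2.87% with the control peptide without barcodes above 2 times the median UMIs, and 0.874%, 1.36% and 1.98% for members with little microglial RNA. P2ry12 was at 584 CPM in sham with 1000 genes, 559, 906 and 982 CPM at 5%, 973, 1440 and 1862 CPM at 0.5%, 741 CPM in sham with 3 markers, 1073, 592 and 535 CPM without deep barcodes, 69.9, 83.8 and 65.6 CPM with little microglial RNA, 1702, 1185 and 960 CPM with equal weights, and 1293 and 1486 CPM in the NMOSD libraries without the 3 deepest members. The granule ratio was 6.01 and 8.51 in sham and control peptide with 1000 genes, 9.09 and 4.11 in the NMOSD libraries at 5%, 1.97, 4.15 and 2.15 without deep barcodes, 4.63 and 9.18 in sham and control peptide with little microglial RNA, 3.28, 4.65 and 2.54 with equal weights, 5.52 and 3.77 in sham and APOE130-149 without the member with most azurophil UMIs, 4.86 and 3.90 in these without the 3 deepest, and 8.38 with the control peptide without shared barcodes. In members with little microglial RNA it was 1.33, 4.42 and 2.19 without deep barcodes, 2.35, 4.59 and 2.27 with equal weights, 4.24 and 3.62 in sham and APOE130-149 without the azurophil member, 3.76 in sham without the 3 deepest, 4.46 and 8.61 in sham and control peptide at a limit of 0.25% microglia markers, 5.17, 9.55 and 4.19 at 1%, and 9.52 with the control peptide without shared barcodes. Genes higher with the control peptide than in sham numbered 673 without deep barcodes, 1532 with little microglial RNA, 1909 with equal weights, 1566 with median-of-ratios scaling and 7251 without a minimum level; lower genes numbered 1590 without deep barcodes, 1362 with equal weights, 1599 with that scaling, 1064 with the microglial share subtracted and 1702 without a minimum. With APOE130-149, higher genes numbered 909, 797, 950, 2022 and 2470 without deep barcodes, with little microglial RNA, with equal weights, with the share subtracted and without a minimum, and lower genes 782, 1363, 1517, 2181 and 2536, and 671 at an S100 limit of 5%. Of the lists in members with little microglial RNA, without deep barcodes 1 proliferation gene was higher with the control peptide and 1 lower with APOE130-149. With APOE130-149, 4 receptor and 3 cytokine genes were higher in that setting, and 3 cytokine genes were higher with equal weights. These list counts have no share over all genes beside them. Log2 ratios of the control peptide to sham changed sign without deep barcodes for Ube2c (-0.27), S100a8 (0.43), S100a9 (0.53), Mmp8 (0.00066), Mmp9 (0.24), Ltf (0.95), Lcn2 (0.56), Ngp (0.93), Cebpe (1.81), Chil3 (1.13) and Ly6g (0.41), with equal weights for S100a8 (0.31), S100a9 (0.44), Retnlg (0.18), Mmp8 (0.28), Mmp9 (0.40), Ltf (0.68), Lcn2 (0.42), Ngp (0.70), Cebpe (1.13) and Chil3 (0.72), with little microglial RNA for Olfm4 (0.0023), Ltf (0.021), Lcn2 (0.071), Ngp (0.27), Cebpe (0.26) and Chil3 (0.23), and with the share subtracted for Cebpe (0.13). The cause of these shifts was not tested. Settings tried within the members with little microglial RNA, and those on the azurophil member, the deepest members, shared barcodes and the barcodes with most Ahnak or Elane UMIs were chosen after seeing the data. With 37 to 68 members of that kind per library, genes of few members were limited by the number of cells.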
